A study of Homo sapiens with 9 samples.

Results

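A list of KRAB zinc finger genes of chromosome 19, with their corepressor *TRIM28*, was followed in HEK293 cells, a human embryonic kidney line. The study expressed the RNA editing enzyme ADARB1 transiently in these cells. The 44 members were a list of 43 *ZNF* genes and *TRIM28*, chosen by name and class with earlier results of these data known, and all 44 were found among the 54562 Ensembl genes of the deposited table. Cells were transfected with the empty vector as control (EV) or with a plasmid that expresses ADARB1, either the isoform that skips an *Alu* exon (Short) or the one that includes it (Long). Each group had 3 libraries of polyA RNA collected 48 hours after transfection. The replicate numbers 1, 2 and 3 were taken to stand for the 3 cell passages in which the transfections were repeated. All groups carry a plasmid, and the cells of a library are a transfected population in which the share of cells that took up plasmid was not used here.

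KRAB zinc finger proteins are the largest family of transcription factors encoded in the human genome. Their zinc fingers bind DNA, often inside retrotransposons, and their KRAB domain recruits TRIM28 (also called KAP1), a scaffold that brings in the histone methyltransferase SETDB1, the heterochromatin proteins of the CBX family and the nucleosome remodelling and deacetylase complex, which together silence the bound site. The genes arose by repeated tandem duplication and stand in clusters on both arms of chromosome 19, so that neighbouring members are close relatives in sequence. ADARB1 (also called ADAR2) deaminates adenosine to inosine in double-stranded RNA.

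The relationship among the members can be read in the stretch that joins one zinc finger to the next. It was searched in the coding sequences of the 43 zinc finger members (GENCODE annotation of GRCh37, the build named hg19 in the submitters' notes), which held 7 to 36 fingers of the C2H2 kind (median 13) and 444 to 1280 residues. The search found 395 linkers of 30 bases, of which 177 were distinct. The linkers that follow are shown because members that fell in Long carry them, and they run from 5′ to 3′ on the coding strand, with the bases that code for the core of the linker in capitals and the last histidine of the finger before it in front of them.
ZNF91 linker: catACTGGAGAGAAACCCtacaaatgtgaa
ZNF845 linker: catACTGGAGAGAAACCTtacaaatgtgaa
ZNF675 linker: cacACTGGAGAGAAACCCtacaaatgtgaa
ZNF14 linker: cacACTGGAGAGAAACCCtatgaatgtaag

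The *ZNF91* linker lies at chr19:23542790-23542819 on the minus strand of GRCh37, in a coding exon. The same 30 bases stood in 22 of the 43 members and in 71 annotated genes in all, among them *ZNF100*, *ZNF254*, *ZNF43* and *ZNF430*. The *ZNF845* linker, at chr19:53854973-53855002 on the plus strand, was present in 14 members and 34 genes. The *ZNF675* linker (chr19:23836454-23836483, minus strand) was present in 6 members and 18 genes, and that of *ZNF14* (chr19:19823328-19823357, minus strand) in 1 member and 18 genes. At the length of a sequenced read the members were more distinct. Of the 43 zinc finger members, 22 shared no window of 100 bases of their transcript with another gene, and 3 shared over 5% of their windows, *ZNF208* (26.0%), *ZNF492* (18.4%) and *ZNF808* (7.54%). On their own strand *ZNF28*, *ZNF83*, *ZNF468*, *ZNF493*, *ZNF701*, *ZNF765*, *ZNF808* and *ZNF816* overlap another gene annotated as protein coding, and *ZNF90*, *ZNF761* and *ZNF813* overlap a transcribed pseudogene. For these genes, and for *ZNF208* and *ZNF492*, the assignment of reads is uncertain. Further members overlap other noncoding annotations on their own strand, among them *ZNF254* with a long noncoding RNA, and *ZNF43*, *ZNF91*, *ZNF100*, *ZNF430* and *ZNF675* overlap pseudogenes on the other strand. Whether strand was used in counting is not given in the sources used here.

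The level of each gene was deposited as FPKM, a fragment count divided by the length of the gene and by the fragments mapped in the library. The zinc finger members were expressed at low levels in EV cells. Their EV mean ran from 0.0587 FPKM (*ZNF610*) to 22.9 FPKM (*ZNF331*), with a median of 4.04 FPKM over the 43, against a median of 11.7 FPKM over the 13801 genes whose mean over all 9 libraries reached 1 FPKM. These 13801 genes were tested, and they hold 34 of the 44 members (33 zinc finger genes and *TRIM28*), while 10 zinc finger members did not reach this level. *TRIM28* was far more abundant, at 151.8 ± 4.38 FPKM in EV (mean ± SD, n = 3), above 96.7% of the genes tested. Log2 fold changes were taken on FPKM + 1, which understates the change of genes at low FPKM, and tested with limma with the passage as a block and Benjamini-Hochberg adjustment over the 13801 genes. With this block, the p-values measure the spread that remains between these libraries after group and passage differences are taken out. Nothing but the passage is known to separate the replicates.

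In the libraries as a whole, *ADARB1* ranged from 7.66 to 8.61 FPKM in EV cells, from 1889 to 4145 FPKM in Short cells and from 1695 to 3449 FPKM in Long cells, with every Short and Long library above every EV library. The number of fragments was not given. Steps in the lowest FPKM values gave estimates of relative depth of 0.986 to 1.21, with EV replicate 1 as the unit. The neuronal filament gene *NEFM*, which HEK293 cells are known to express, was at 48.6 to 75.5 FPKM and *PAX2* at 1.73 to 2.87 FPKM. The leukocyte gene *PTPRC* was at most at 0.131 FPKM and *ALB* at most at 0.326 FPKM, and *HBB* was listed at 0 in all 9 libraries. *COL1A1*, checked beside these genes, was at 9.10 to 12.9 FPKM, above *PAX2*. The low level of *PTPRC*, *ALB* and *HBB* was thus not shared by every gene checked beside them.

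*TRIM28* (ENSG00000130726, chr19:59055431-59062089, plus strand) was higher in Long and Short cells than in EV cells. It had 156, 148 and 151 FPKM in the EV libraries, 179, 180 and 177 in the Short ones and 166, 174 and 180 in the Long ones. Every Short and every Long library was above every EV library, while the Short and Long values overlapped. Such a lack of overlap was common, with 1448 of the 13801 genes tested wholly above EV for Long and 1509 for Short. For Long against EV *TRIM28* rose by 0.19 on the log2 scale (SE 0.05, limma, Benjamini-Hochberg adjusted p = 0.0368). For Short against EV the log2 fold change was 0.23 (SE 0.05) and did not pass (limma, adjusted p = 0.11), and for Long against Short it was -0.04 (limma, adjusted p = 0.935). An exact permutation test of the 3 Long against the 3 EV values gave p = 0.1, the smallest that 3 against 3 allows (two-sided), and the paired one 0.25, also the smallest possible. The log2 fold change ran from 0.08 to 0.24 over 14 alternatives, each above 0, and passed the test in 2 of them (adjusted p 0.0276 to 0.637, limma with Benjamini-Hochberg adjustment). *TRIM28* transcripts have a GC content of 64.2%, and the value of 0.08 was that after correction for GC content.

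**Figure D1:**
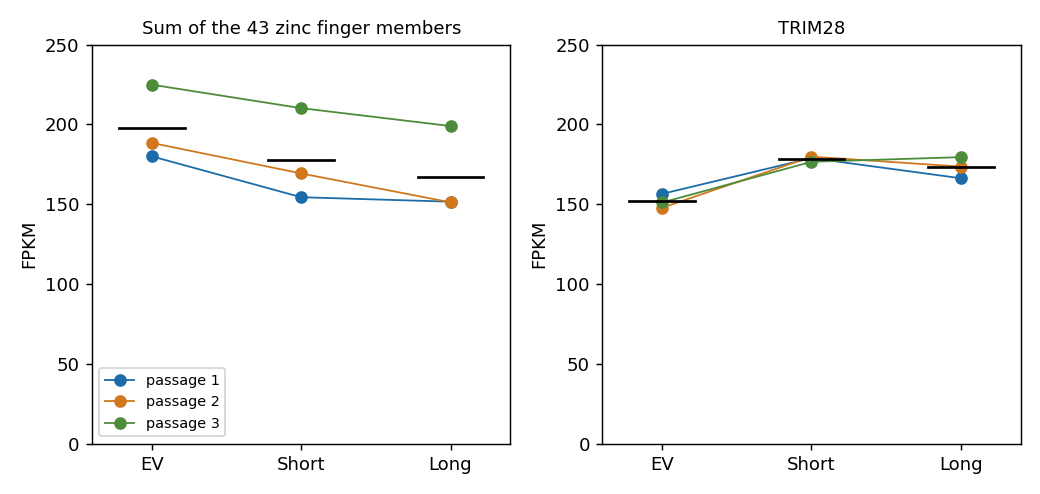
Sum of the FPKM of the 43 zinc finger members (left) and FPKM of *TRIM28* (right) in each library of EV, Short and Long. Points of one passage are joined, and the black bars are the means of 3 libraries. In each passage the summed zinc finger level was highest in EV, at 180, 188 and 225 FPKM, and *TRIM28* was lowest in EV.

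The summed level of the zinc finger members was lower in Long than in EV in each passage, and 8 of the 33 tested passed the test. Summed over the 43 genes they reached 180, 188 and 225 FPKM in EV replicates 1 to 3, while the Short libraries had 154, 169 and 210 FPKM and the Long libraries 152, 151 and 199 FPKM. The groups overlapped in this sum, because passage 3 stood above the others in each group, but within each passage both Short and Long were below EV. Of all 43 zinc finger members, 32 were lower in Long than in EV in each of the 3 passages and 1 was higher in each (*ZNF880*). For Short against EV these numbers were 26 and 2 (*ZNF480* and *ZNF880*). Among the 33 tested, 23 (69.7%) were lower in 3 passages for Long and 20 (60.6%) for Short. Over all genes tested, 18.1% were lower in 3 passages for Long and 13.4% for Short. Of these 13801 genes, 3787 were higher in 3 passages for Long and 4411 for Short. Fewer transcripts per cell and a change in the share of cells that hold them cannot be told apart in these bulk libraries.

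For Long against EV, 8 of the 33 tested zinc finger members fell and none rose, beside *TRIM28*, which rose. That is 24.2% of the zinc finger members tested, where 6.33% of all genes tested were called lower and 1.99% called higher. With values scaled to equal library sums (TPM), 14 zinc finger members fell and *TRIM28* was no longer called, and after a correction for the GC content of the transcripts no member was called (limma). Of all genes tested, 1222 were called lower under TPM and 238 after the GC correction. At an unadjusted p under 0.05, 16 zinc finger members were lower in Long (12.0% of all genes). For Short against EV no member was called by limma at an adjusted p under 0.05, as for nearly all genes (0.0362% called), and 10 zinc finger members were lower at an unadjusted p under 0.05 (6.88% of all genes). For Long against Short no member was called (0.00725% of all genes), and 5 were lower in Long at an unadjusted p under 0.05 (5.93% of all genes). A difference between the isoforms was not shown for any member.

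The median log2 fold change over the 34 tested members was -0.23 for Long against EV, where the median of all genes tested was 0.04. It was -0.15 for Short against EV (all genes 0.04) and -0.11 for Long against Short (all genes -0.02). Both comparisons with EV share the same EV libraries. In 6 of the 33 tested zinc finger members (18.2%) every Long library was below every EV library (3.14% of all genes tested). Every Short library was below every EV library in 3 of the 33 (9.09%, against 2.11% of all genes tested).

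**Figure D2:**
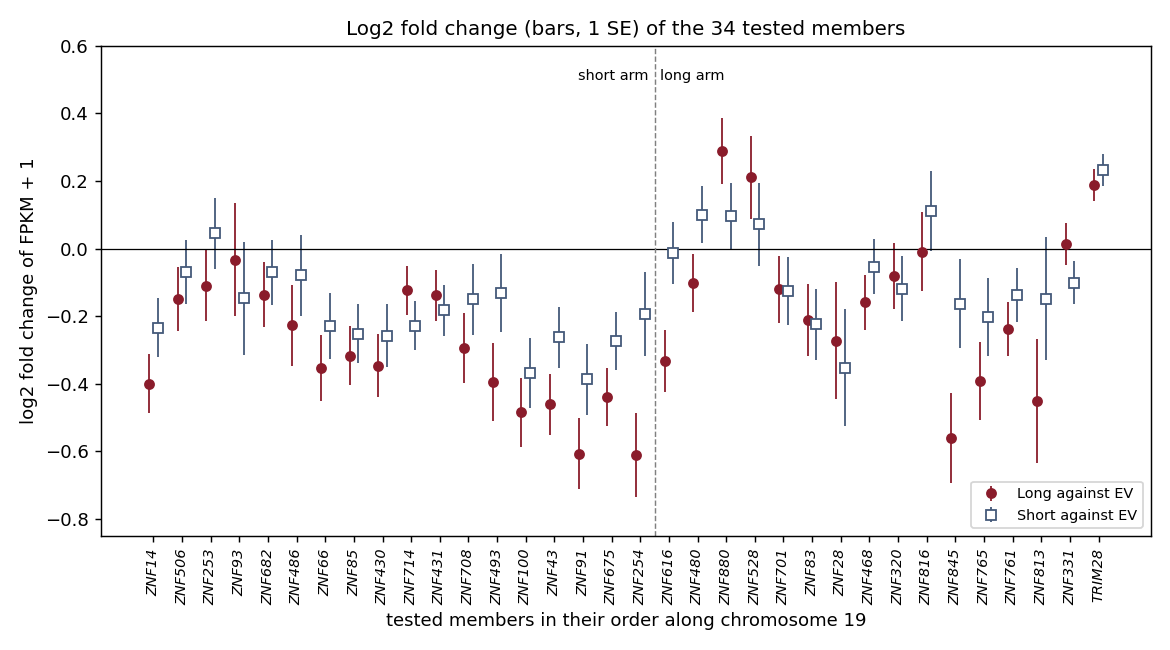
Log2 fold change of FPKM + 1 for the 34 tested members in their order along chromosome 19, for Long against EV (filled circles) and Short against EV (open squares). Bars are 1 SE of the limma fit. All 18 short-arm members lie below 0 for Long, down to -0.61, while the long-arm members spread from -0.56 to 0.29.

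*ZNF91* and *ZNF254* had the largest falls. ZNF91 (ENSG00000167232, chr19:23487793-23578273, minus strand) is known to repress SVA retrotransposons and carries 31 fingers. *ZNF91* had 4.28, 4.58 and 6.14 FPKM in the EV libraries, 2.42, 3.30 and 5.38 in the Short ones and 2.42, 2.36 and 4.18 in the Long ones. Every Long library was below every EV library, and the Short libraries overlapped both groups. Its log2 fold change was -0.61 (SE 0.11) for Long against EV (limma, Benjamini-Hochberg adjusted p = 0.0108) and -0.39 (SE 0.11) for Short against EV (limma, adjusted p = 0.11). The mean FPKM was 40.3% lower in Long and 26.0% lower in Short than in EV.

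*ZNF254* (ENSG00000213096, chr19:24216207-24312770, plus strand), a member with 13 fingers at the centromeric end of the short-arm cluster, had 9.73, 6.51 and 12.03 FPKM in the EV libraries. The Short libraries had 6.71, 7.02 and 10.3 FPKM and the Long libraries 4.28, 4.75 and 8.70 FPKM. The groups overlapped, with EV replicate 2 below every Short library and Long replicate 3 above EV replicate 2, and Long was below EV in each passage. The passages differed in size, at -1.02, -0.39 and -0.43 on the log2 scale. The fitted log2 fold change for Long was -0.61 (SE 0.12, limma, adjusted p = 0.0164), and for Short it was -0.19 (SE 0.12, limma, adjusted p = 0.375).

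*ZNF845* (ENSG00000213799, chr19:53837002-53860159, plus strand), with 26 fingers, was the long-arm member among the 8. It had 3.50, 3.58 and 5.14 FPKM in the EV libraries, 2.20, 3.995 and 4.64 in the Short ones and 1.76, 1.90 and 3.91 in the Long ones. Long was below EV and below Short in each passage, though Long replicate 3 was above EV replicates 1 and 2. The log2 fold change for Long was -0.56 (SE 0.13, limma, adjusted p = 0.0293), and that for Short was -0.16 (SE 0.13, limma, adjusted p = 0.498).

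*ZNF100*, *ZNF43* and *ZNF675* followed. *ZNF100* (ENSG00000197020, chr19:21905573-21950381, minus strand) had 5.05, 5.35 and 6.998 FPKM in the EV libraries, 3.20, 3.63 and 6.34 in the Short ones and 3.21, 2.98 and 5.69 in the Long ones. *ZNF43* (ENSG00000198521, chr19:21987752-22034927, minus strand) had 4.998, 5.15 and 7.40 FPKM in the EV libraries, 3.64, 4.51 and 6.02 in the Short ones and 3.36, 3.19 and 5.51 in the Long ones. *ZNF675* (ENSG00000197372, chr19:23708433-23870022, minus strand), whose product is also known as an inhibitor of TRAF6 signalling, had 5.15, 4.97 and 8.32 FPKM in the EV libraries, 3.62, 3.96 and 7.43 in the Short ones and 3.18, 3.33 and 6.55 in the Long ones. In these 3 genes the EV library was above the Short and the Long library of the same passage in each passage, and passage 3 was the highest in every group. The log2 fold changes for Long were -0.49, -0.46 and -0.44 (limma, adjusted p = 0.0193, 0.0147 and 0.0147), and those for Short were -0.37, -0.26 and -0.27 (limma, adjusted p = 0.11, 0.14 and 0.124).

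*ZNF14* and *ZNF430* completed the 8, with log2 fold changes for Long of -0.40 and -0.35 (limma, adjusted p = 0.0223 and 0.0488). The mean of *ZNF14* was 3.97 ± 0.52 FPKM in EV and 2.77 ± 0.48 FPKM in Long (SD, n = 3), with no overlap. The members nearest to the threshold on the other side were *ZNF85*, *ZNF616* and *ZNF66*, with log2 fold changes of -0.32, -0.33 and -0.35 (limma, adjusted p = 0.0514, 0.0516 and 0.052). Of these 11 genes, *ZNF616* and *ZNF845* are on the long arm.

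The calls rested on replicates 1 and 2 more than on replicate 3. Without replicate 1 no member was called (limma, where 15 zinc finger members were lower at an unadjusted p under 0.05), without replicate 2 only *ZNF254* was, and without replicate 3 there were 7 lower. Of all genes tested, 1 was called lower without replicate 1, 88 without replicate 2 and 944 without replicate 3. Without the passage as a block no member was called, and 4 zinc finger members were lower at an unadjusted p under 0.05. Calls were lost among all genes tested too, with 1 called lower and 429 lower at an unadjusted p under 0.05. The median log2 fold change of the tested zinc finger members, -0.24 in the fit of all passages, was -0.23, -0.19 and -0.30 without replicates 1, 2 and 3.

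The members shared this dependence on the passage. Replicate 3 was the highest library for 27 of the 33 tested zinc finger members in EV, for 29 in Short and for 27 in Long. Over all genes tested it was the highest for 35.7%, 29.0% and 36.4%. The estimated relative depth of these libraries was 1.17 for EV, 1.21 for Short and 1.12 for Long, against 0.986 to 1.07 in the others. The part of depth in the members' level was not tested.

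Transcript composition moved with the result. The longest annotated transcripts of the 43 zinc finger members have a GC content of 33.9% to 47.4% (median 39.2%), each below the median of 47.8% of the genes tested. The coding parts (median 38.9%) and the 3′ untranslated parts (median 36.0%) were alike in this. Among the 33 tested zinc finger members the lower the GC content, the further the log2 fold change lay below 0, with a Spearman correlation of 0.424 for Long and 0.345 for Short, as a description across genes that share libraries and, on each arm, a sequence family. After a correction for GC content in each library, no member was called (limma), 9 zinc finger members were lower in Long at an unadjusted p under 0.05, and the median log2 fold change of the tested members was -0.11 for Long (all genes -0.01) and -0.06 for Short (all genes 0.02). Under the same correction 238 of all genes were still called lower and 89 higher. With the correction *ZNF91* moved from -0.61 to -0.35, *ZNF430* from -0.35 to -0.12 and *ZNF85* from -0.32 to -0.04, and *ZNF845* moved from -0.56 to -0.48 and *ZNF14* from -0.40 to -0.32.

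**Figure D3:**
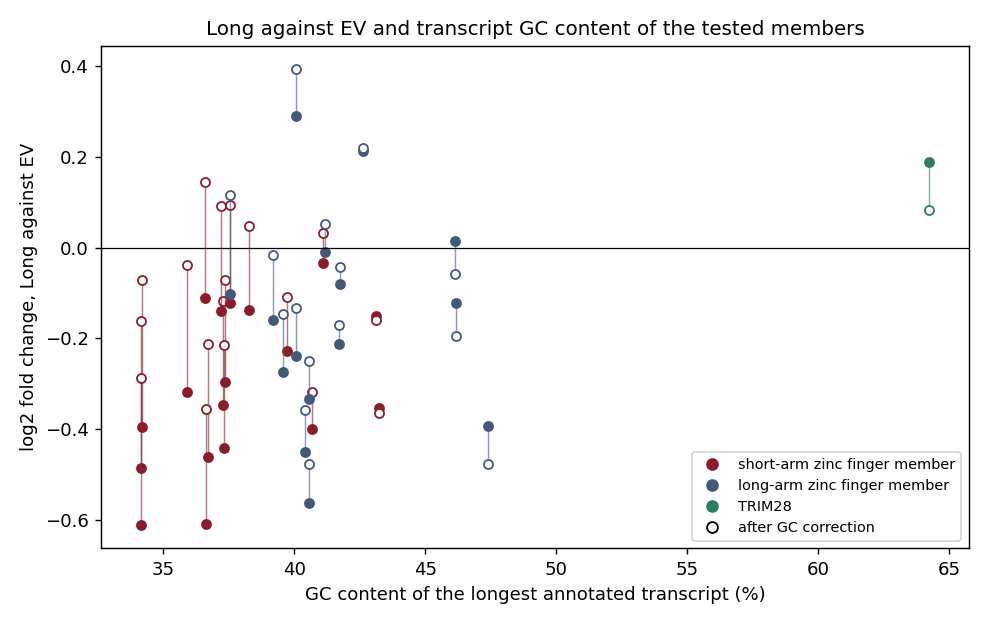
Log2 fold change for Long against EV of the 34 tested members against the GC content of their longest annotated transcript, before (filled) and after (open) a correction for GC content in each library. Zinc finger members under 39% GC moved up under the correction, and *TRIM28*, at 64.2% GC, moved down from 0.19 to 0.08.

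The members were also described by chromosome arm, with no test of the difference. On the short arm, between *ZNF14* and *ZNF254*, 7 of 18 tested members fell in Long and all 18 had a log2 fold change below 0, with a median of -0.33. On the long arm, between *ZNF616* and *ZNF331*, 1 of 15 fell and 12 were below 0, with a median of -0.16. For Short against EV the medians were -0.21 and -0.12, with none called on either arm. The arms also differed in GC content, with a median of 36.7% over the 25 short-arm and 40.9% over the 18 long-arm members, and after the GC correction their medians for Long were -0.11 and -0.13.

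Other zinc finger genes were compared by their counts. They were picked by the name *ZNF* alone, whether or not they carry a KRAB domain. Of the other 162 tested *ZNF* genes on chromosome 19, 11 fell in Long and none rose, which is 6.79%, and their median log2 fold change was -0.02 (GC content 42.8%). Of the 221 tested *ZNF* genes on other chromosomes, 26 fell (11.8%) and 1 rose, with a median of -0.02 and a GC content of 45.6%. After the GC correction 2 of the 162, 7 of the 221 and 0 of the 33 members were called lower. These are counts beside the members' 8 of 33, and no test of the difference was made, since the members were listed with earlier results of these data known.

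The most abundant zinc finger members did not pass the test. *ZNF331*, an imprinted gene and the highest, had 20.6, 23.0 and 25.3 FPKM in the EV libraries, 18.4, 21.1 and 24.7 in the Short ones and 21.5, 21.7 and 26.4 in the Long ones. Its log2 fold change for Long was 0.01 (SE 0.06, limma, adjusted p = 0.921), with a sign that turns under TPM, median ratio scaling and the GC correction. *ZNF480* had 16.9, 19.2 and 21.1 FPKM in the EV libraries, 19.7, 20.4 and 21.3 in the Short ones and 18.8, 15.4 and 19.01 in the Long ones. The groups overlapped in both genes except that each Long value of *ZNF480* was below each Short value (log2 fold change -0.20, SE 0.09, limma, adjusted p = 0.648).

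A few members had values above EV with either isoform. *ZNF880* had 6.81, 5.72 and 5.32 FPKM in the EV libraries, 6.88, 6.41 and 5.94 in the Short ones and 6.91, 8.47 and 7.07 in the Long ones. Each Long library was above each EV library, as for 1448 of the 13801 genes tested. The log2 fold change was 0.29 (SE 0.10) for Long and 0.10 (SE 0.10) for Short, neither past the test (limma, adjusted p = 0.0973 and 0.586). *ZNF528*, its neighbour on the long arm, had 5.48, 5.63 and 7.59 FPKM in the EV libraries, 6.10, 7.66 and 5.97 in the Short ones and 7.25, 7.996 and 6.71 in the Long ones. The groups overlapped, and its log2 fold changes of 0.21 and 0.07 (SE 0.12) did not pass either (limma, adjusted p = 0.322 and 0.766). Under all alternatives tried the value for Long was above 0 in both genes, while that of *ZNF528* for Short ran from -0.08 to 0.26.

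The members with the lowest level among those tested did not pass the test. ZNF93, known to repress the L1PA4 class of LINE-1 elements, had 1.31, 0.990 and 1.17 FPKM in the EV libraries, 0.930, 0.941 and 0.954 in the Short ones and 0.628, 1.80 and 1.03 in the Long ones. Its Short values were all below the EV values, while the Long values spread on both sides of them (log2 fold change -0.03, SE 0.17, limma, adjusted p = 0.929). *ZNF701* had 1.01, 1.27 and 1.58 FPKM in the EV libraries, 0.932, 1.06 and 1.27 in the Short ones and 0.875, 1.11 and 1.31 in the Long ones. It was lower than EV in each passage, by less than the spread between passages (Long -0.12, SE 0.10, limma, adjusted p = 0.494). *ZNF253* had 1.41, 1.43 and 1.54 FPKM in the EV libraries, 1.24, 1.65 and 1.76 in the Short ones and 1.26, 1.30 and 1.27 in the Long ones. Its Long values were all below EV, at a log2 fold change of -0.11 (SE 0.10, limma, adjusted p = 0.562), and its Short values lay on both sides. *ZNF816*, with the value nearest to 0 for Long, had 2.08, 2.66 and 2.83 FPKM in the EV libraries, 2.59, 3.05 and 2.73 in the Short ones and 2.49, 2.03 and 3.01 in the Long ones (log2 fold change -0.01, SE 0.12, limma, adjusted p = 0.974).

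The 10 zinc finger members below the level tested are given as values. *ZNF808*, whose product is known to bind MER11 elements, had 0.866, 0.907 and 1.04 FPKM in the EV libraries, 0.672, 0.569 and 0.669 in the Short ones and 0.792, 0.849 and 0.802 in the Long ones. *ZNF90* had 0.568, 0.525 and 0.618 FPKM in the EV libraries, 0.427, 0.406 and 0.485 in the Short ones and 0.425, 0.261 and 0.412 in the Long ones. In both genes every Short and every Long library was below every EV library. *ZNF600* had 0.372, 0.329 and 0.510 FPKM in the EV libraries, 0.290, 0.441 and 0.363 in the Short ones and 0.220, 0.183 and 0.258 in the Long ones. *ZNF208*, which carries 36 fingers, had 0.0931, 0.0980 and 0.146 FPKM in the EV libraries, 0.0471, 0.0512 and 0.106 in the Short ones and 0.0339, 0.0226 and 0.0822 in the Long ones. These 2 genes also had no Long library as high as an EV library, and *ZNF208* shares 26.0% of its windows with an overlapping annotation.

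Low members with overlapping groups followed the passages. *ZNF681* had 0.635, 0.815 and 0.916 FPKM in the EV libraries, 0.412, 0.629 and 1.08 in the Short ones and 0.327, 0.324 and 0.844 in the Long ones. *ZNF429* had 0.678, 0.784 and 1.11 FPKM in the EV libraries, 0.443, 0.478 and 0.983 in the Short ones and 0.403, 0.433 and 0.807 in the Long ones. *ZNF737* had 0.363, 0.2995 and 0.454 FPKM in the EV libraries, 0.320, 0.255 and 0.361 in the Short ones and 0.248, 0.230 and 0.325 in the Long ones. In all 3 the Long library was the lowest of its passage and passage 3 the highest of its group. *ZNF492* had 0.229, 0.261 and 0.403 FPKM in the EV libraries, 0.160, 0.251 and 0.337 in the Short ones and 0.149, 0.167 and 0.286 in the Long ones. *ZNF257* had 0.181, 0.195 and 0.277 FPKM in the EV libraries, 0.121, 0.243 and 0.281 in the Short ones and 0.0483, 0.138 and 0.198 in the Long ones. These 2 genes were again lower in Long than in EV in each passage. *ZNF610* stood at 0.0205, 0.0399 and 0.116 FPKM in EV, was listed at 0 and stood at 0.0574 and 0.0339 FPKM in Short, and stood at 0.0410, 0.0810 and 0.0923 FPKM in Long. Long was above Short in each passage, and neither was on 1 side of EV in all passages. Of the 10, 9 were lower in Long and 6 lower in Short than in EV in each passage. Neither direction nor overlap was counted over the other genes below the level tested. These counts, and the lack of overlap in some of the 10, therefore have no background to be read against.

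The proteins that act with the members were taken from a list of 24 genes of the TRIM28 pathway, of which 21 were tested. The names were chosen for their role, with earlier results of these data known. For Long against EV 4 fell and none rose (6.33% of all genes were called lower), and no gene of the list was called for Short against EV or Long against Short (limma). *ATRX*, the chromatin remodeller that deposits histone H3.3 at heterochromatin, had 15.2, 12.3 and 20.5 FPKM in the EV libraries, 4.17, 7.96 and 21.0 in the Short ones and 2.55, 2.81 and 12.3 in the Long ones. Its log2 fold change for Long was -1.56 (SE 0.26, limma, Benjamini-Hochberg adjusted p = 0.00965), and Short replicate 3 was as high as EV replicate 3.

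*SMARCAD1*, a remodeller that binds TRIM28, *TASOR* (listed as *FAM208A*), a subunit of the HUSH silencing complex, and *CBX3*, which encodes the heterochromatin protein HP1γ, were the other 3 that fell. Their log2 fold changes for Long were -0.62, -0.53 and -0.33 (limma, adjusted p = 0.014, 0.00965 and 0.00974). The transcripts of all 4 are poor in GC (36.9% to 39.5%), and after the GC correction *ATRX* (-1.32) and *TASOR* (-0.38) were still called (limma, adjusted p = 0.0304 and 0.0406 in that fit, 0.00965 in the fit without it for both). Without the passage as a block none of the 4 was called (limma, adjusted p 0.637 to 0.683), where 1 of all genes tested was called lower. *SETDB1*, the histone methyltransferase that TRIM28 recruits, did not pass, at 23.7 ± 1.48 FPKM in EV and a log2 fold change for Long of 0.15 (SE 0.06, limma, adjusted p = 0.139). The median log2 fold change of the 21 was -0.03 for Long and -0.02 for Short.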

How the data were processed

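HEK293 cells were transfected with EV, Short or Long plasmids in 3 cell passages, giving 9 libraries, grouped by the sample labels. The libraries were made with a stranded polyA kit. Reads were mapped to hg19, the submitters' processing notes name TopHat (version 1.4.1) and Cufflinks, and the FPKM of each Ensembl gene in each library were deposited in 1 table, with replicates kept apart. The roles of these programs in counting, and the number of fragments, are not given in the sources used here, so the precision is that of 3 libraries per group.

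Members were matched to identifiers through the GENCODE annotation of GRCh37 (44 of 44), and linkers were read from that genome. With a pseudocount of 1, log2 FPKM was tested in R (version 4.3.3) by limma (version 3.58.1, lmFit and eBayes with a trend) on the 13801 genes whose mean reached 1 FPKM, with 3 groups and the passage as a block, and Benjamini-Hochberg adjustment at 0.05. Libraries were paired by number because the study repeated its transfections in different cell passages and made its editing test within each replicate. That equal numbers stand for the same passage in every group was taken from the numbering. Same-numbered libraries deviated together from their group means (r 0.327 to 0.813 over 9 pairs, mean 0.552). The 18 pairs of different numbers had a mean of -0.256 (range -0.634 to 0.366), and the 2 ranges overlap. Deviations from a group mean cancel within the group, which by itself pulls the different-numbered pairs the other way. The contrast between the 2 kinds of pair is therefore no separate evidence for the pairing. Tested on simulated data for Long against EV with 13801 genes, the fit recovered 198 of 200 genes that had been shifted by 1.5 (log2) and called 6 unchanged ones. That shift is larger than any of the zinc finger members, whose log2 fold changes for Long reached -0.61. The simulated noise was independent between genes and held no passage effect. How well changes of the members' size are found was not tested.

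The members and lists were chosen with earlier results of these data known. Values in every library were given for *TRIM28*, the 6 largest called changes in each comparison, the 3 highest, 3 lowest and 3 least changed tested members, the members not tested, and those above EV with both isoforms. Alternatives were a pseudocount of 0.1, TPM, median ratio scaling, no block, only the groups compared, no trend, no filter, a minimum mean of 5 FPKM, each replicate left out, and loess corrections (span 0.3) for GC content and length; a robust GC correction was added after seeing the data. Of the corepressor list, *DAXX* and *EHMT2* did not reach the level tested and *UHRF1* matched no identifier. Of the line markers, *NEFL* and *LHX1* matched none, *COL1A1* was at 9.10 to 12.9 FPKM and *ALB* at most at 0.326 FPKM.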

Additional observations from a re-analysis of the deposited data

How the results depend on the processing

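The counts of called members in Long against EV depended on the settings. Of the 33 zinc finger members tested, 8 were called lower, which became 14 under TPM. A minimum mean of 5 FPKM left 10 of them in the test, with 3 called lower. The number called lower was 0 with no replicate block, with no filter on low values (43 tested) and with either GC correction. Leaving out a replicate gave 0 to 7. The 873 genes called lower among all those tested became 1222 under TPM and 814, of 10072 tested, with a minimum mean of 5 FPKM. They became 1 with no replicate block, 0 with no filter, 238 with the GC correction and 220 with its robust form. The 1 member called higher, *TRIM28*, became 0 under TPM, median ratio scaling, no replicate block, only the groups compared, no trend, no filter, either GC correction, the length correction and each replicate left out. The cause was not tested, and a fit with a replicate left out also has fewer libraries. No member was called in the other comparisons under any alternative. The median log2 fold change of the 34 tested members for Long was -0.23. It moved to -0.12 with a minimum mean of 5 FPKM, over the 11 members left by that filter. It was -0.11 with the GC correction and -0.10 with the robust one. For Short the median moved from -0.15 to -0.20 with a pseudocount of 0.1, -0.21 under TPM and -0.19 under median ratio scaling. It was -0.064 and -0.059 with the GC correction and its robust form, and between -0.086 and -0.18 with a replicate left out. Under the GC correction and its robust form the log2 fold change for Long turned above 0 for *ZNF253* (0.14 and 0.16), *ZNF93* (0.032 and 0.044), *ZNF682* (0.047 and 0.063), *ZNF714* (0.093 and 0.11), *ZNF431* (0.091 and 0.10), *ZNF480* (0.12 and 0.13) and *ZNF816* (0.051 and 0.064), and below 0 for *ZNF331* (-0.058 and -0.052), which was also at -0.059 under TPM and -0.024 under median ratio scaling. With a replicate left out, *ZNF93* ran from -0.30 to 0.20, *ZNF816* from -0.10 to 0.12 and *ZNF331* from -0.011 to 0.061. None of these was called. Depth was estimated only between libraries, and low members rest on few fragments.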
